A study of Mus musculus with 11 samples.

Results

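The genes described here encode core parts of the Polycomb repressive complexes and the 2 demethylases that remove the mark those complexes leave. They were found by gene symbol: Ezh1, Ezh2, Eed, Suz12, Bmi1, Cbx2, Cbx7, Ring1, Kdm6a and Kdm6b, which are 10 of the 37991 genes listed. All 10 passed the filter on low values in all 4 groups of cultures. RNA had been sequenced from cultured neural stem cells of the frontal cortex of C57BL/6J mouse embryos at embryonic day 14.5, on flasks whose coating the labels give as PDL/LMN. The NSC group (3 libraries) was collected at day 0, when proliferation medium was replaced. The other cultures were kept to day 4 in 1 of 3 media that all held 2 mM GlutaMAX. The Astrocyte group (3 libraries) received DMEM with 1% N-2 and 1% fetal bovine serum. The Neuron group (3 libraries) received Neurobasal with 2% B-27, and the Oligodendrocyte group (2 libraries) the same plus 30 ng/mL of T3, a thyroid hormone. No day 4 culture in proliferation medium is among the samples, so medium and time cannot be told apart in comparisons with NSC, and a group's name gives the medium, not the cells it held.

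Polycomb repressive complex 2 (PRC2) methylates histone H3 at lysine 27. Its catalytic subunit is EZH2 or EZH1, and both need EED, which binds the methylated tail, and SUZ12, the scaffold. Canonical PRC1 contains a RING1 E3 ligase that ubiquitinates histone H2A, a PCGF partner such as BMI1, and a CBX chromodomain protein that reads trimethylated H3K27. KDM6A (UTX) and KDM6B (JMJD3) remove methyl groups from H3K27. In the developing cortex, PRC2 with EZH2 is known for setting the timing of neurogenesis and gliogenesis, and BMI1 for sustaining neural stem cell self-renewal through repression of the Cdkn2a locus.

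The members moved in opposite directions within each complex, so the promoters of both PRC2 catalytic genes, of a PRC2 scaffold gene and of the CBX gene that rose are shown first. Each is the 250 bases upstream of the RefSeq start site in build GRCm38.p6, 5′ to 3′ on the gene's strand. Capitals mark matches, on either strand, to CCAAT or to the E2F site letters TTTCCCGC, TTTGGCGC, TTTCGCGC and TTTGCCGC. No matches overlapped.
Ezh2, chr6:47595031-47595280, minus strand: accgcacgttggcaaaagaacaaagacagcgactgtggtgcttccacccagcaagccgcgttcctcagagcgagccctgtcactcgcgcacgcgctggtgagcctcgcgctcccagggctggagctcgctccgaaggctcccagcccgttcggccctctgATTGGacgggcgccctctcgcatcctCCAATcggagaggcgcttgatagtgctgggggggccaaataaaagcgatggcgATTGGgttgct
Ezh1, chr11:101226464-101226713, minus strand: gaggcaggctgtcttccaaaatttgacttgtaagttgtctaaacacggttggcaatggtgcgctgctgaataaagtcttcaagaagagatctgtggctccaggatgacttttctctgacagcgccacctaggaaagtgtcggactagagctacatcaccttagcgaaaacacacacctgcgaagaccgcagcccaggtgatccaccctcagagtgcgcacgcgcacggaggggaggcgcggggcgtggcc
Suz12, chr11:79992856-79993105, plus strand: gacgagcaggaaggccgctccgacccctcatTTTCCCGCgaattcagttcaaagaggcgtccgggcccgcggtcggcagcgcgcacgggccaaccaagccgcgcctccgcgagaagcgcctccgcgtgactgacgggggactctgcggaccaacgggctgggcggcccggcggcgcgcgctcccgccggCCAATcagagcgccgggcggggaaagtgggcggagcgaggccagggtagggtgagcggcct
Cbx7, chr15:79932647-79932896, minus strand: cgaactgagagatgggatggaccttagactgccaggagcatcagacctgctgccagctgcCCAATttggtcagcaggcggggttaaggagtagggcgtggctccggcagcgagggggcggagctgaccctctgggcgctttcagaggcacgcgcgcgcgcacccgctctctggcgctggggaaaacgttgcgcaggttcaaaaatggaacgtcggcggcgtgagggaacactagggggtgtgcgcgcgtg

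The Ezh2 promoter held 3 CCAAT matches, beginning 90, 64 and 11 bases upstream of the start site, whereas none of the searched letters occurred in the Ezh1 window. Suz12 had an E2F match beginning 219 bases upstream and a CCAAT match at 61, and Cbx7 a CCAAT match at 190. Entries were found for 8 of the 10 genes, not for Cbx2 and Kdm6b. The windows of Eed, Bmi1, Ring1 and Kdm6a, not shown, held no CCAAT or E2F match. Eed and Bmi1 fell at day 4 and Ring1 rose, so matches did not follow the direction of change. Among 32851 windows of this length, 33.8% held a CCAAT match, 1.86% one of the E2F matches and 1.55% the cyclic AMP response element TGACGTCA, which no member window held. These matches describe letters only.

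RNA levels are the authors' CPM, read counts scaled to a common library total. The smallest step between low values, a rough estimate of the worth of 1 read, was 0.0151 to 0.0203 CPM per library, and mitochondrial genes took 4.54 to 8.91% of the scaled total. Neuron replicate 2 stood apart: its mitochondrial share was the 8.91%, against 6.91% and 6.82% in the other Neuron libraries. Microglial markers (6 genes) summed to 0.29 to 1.32 CPM in every library, and only P2ry12 exceeded 1 CPM in any. Of 6 mesenchymal and 5 endothelial markers, only Pdgfrb and Kdr did so. Markers of several cell types were detected in each day 4 medium, and some of them in NSC too. The 8 astrocyte markers had summed levels of 1594 to 1662 CPM in NSC, 14186 to 15683 CPM in Astrocyte, 8989 to 9828 in Neuron and 3386 to 3819 in Oligodendrocyte. That order was not shared by every marker: Gfap, Aqp4 and Gja1 were called higher in Astrocyte vs Neuron and the other 5 lower, such as Slc1a2 (-1.68) and S100b (-1.27), named with their values known. The 6 mature oligodendrocyte markers summed to 407 to 518, 2505 to 2680 and 2406 to 2755 CPM in these media. Of the 8 neuronal markers, Stmn2 and Nefl stayed under 1 CPM in every library, while the other 6 were tested. The list summed to 850 to 941 CPM in NSC, 763 to 795 in Astrocyte, 897 to 1177 in Neuron and 790 to 801 in Oligodendrocyte. Dcx had means of 1.60 CPM in NSC and 125, 148 and 86.6 in Astrocyte, Neuron and Oligodendrocyte, and Tubb3 of 3.90 and 41.2, 28.4 and 44.8. Against NSC, Map2 and Syt1 were called lower in Astrocyte (-0.55 and -0.70) and in Oligodendrocyte (-0.44 and -0.56). Dcx, Tubb3, Rbfox3 and Snap25 were called higher in both. The 5 oligodendrocyte precursor markers summed to 1784 to 1913 CPM in NSC, 434 to 478 in Astrocyte, 964 to 1179 in Neuron and 758 to 812 in Oligodendrocyte, and all 5 were called lower in Astrocyte vs Neuron. All 5 had their highest day 4 mean in Neuron, such as Pdgfra (means of 76.9, 211 and 66.2 CPM at day 4) and Sox10 (22.3, 135 and 37.0), both named with their values known. Against NSC, Pdgfra and Sox10 were called higher in Neuron, but Cspg4, Olig1 and Olig2 lower. The members Ezh1, Ezh2, Suz12, Bmi1, Cbx2, Cbx7 and Kdm6a had their highest day 4 mean in Neuron, but Eed, Ring1 and Kdm6b did not. Some of these gaps were not called, such as Suz12 in Astrocyte vs Neuron and Ezh2 in Oligodendrocyte vs Neuron. The share of all genes with their highest day 4 mean in Neuron was not computed. The 7 progenitor markers summed to 4965 to 5434, 3816 to 4275, 2552 to 3225 and 2792 to 2871 CPM in the 4 groups, and Nes went from a mean of 1251 in NSC to 199, 70.4 and 419. They did not move together. Against NSC, Nes and Fabp7 were called lower in each day 4 medium and Prom1 higher in each. Sox2 and Pax6 were called higher in Astrocyte and Neuron, and the direction of Vim and Hes5 differed by medium. In such bulk RNA, fewer cells of a type and less RNA per cell cannot be told apart, and the part of cell composition in the results below was not tested.

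Differences are given as log2 fold changes of mean log2(CPM + 1) with standard errors (SE) and Benjamini-Hochberg (BH) adjusted p-values from limma, fitted to 13342 genes. Called means an adjusted p below 0.05. The 3 comparisons with NSC share the same 3 NSC libraries. Of the 10 members, 8 were called in Astrocyte vs NSC (3 higher, 5 lower), where 83.6% of all tested genes were called (48% higher, 35.6% lower). In Neuron vs NSC 9 were called (4 higher, 5 lower), against 83.1% of all genes (43.5% higher, 39.6% lower). In Oligodendrocyte vs NSC 9 were called (4 higher, 5 lower), against 80.2% (48.1% higher, 32.2% lower). The counts of called members were thus near the background, and what follows concerns sizes and directions. With a change of at least 2-fold, 6, 5 and 6 members were called in these comparisons, against 33.7%, 31.8% and 32% of all genes. Groups were fully separated, library by library, for 9, 9 and 10 members, against 86.2%, 83.2% and 89.3% of all genes. The members' median differences were -0.34, -0.09 and -0.14, beside medians of 0.15, 0.06 and 0.19 over all tested genes. Those all-gene medians depend on the scaling of CPM: with median-of-ratios scaling they were -0.0073, -0.0095 and 0.0013, and the share of higher genes among all called went from 57.4% to 49.9% (Astrocyte) and from 59.9% to 49.9% (Oligodendrocyte). Each of the 8, 9 and 9 member calls kept its direction and its side of the threshold under all 20 alternative settings.

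**Figure D1:**
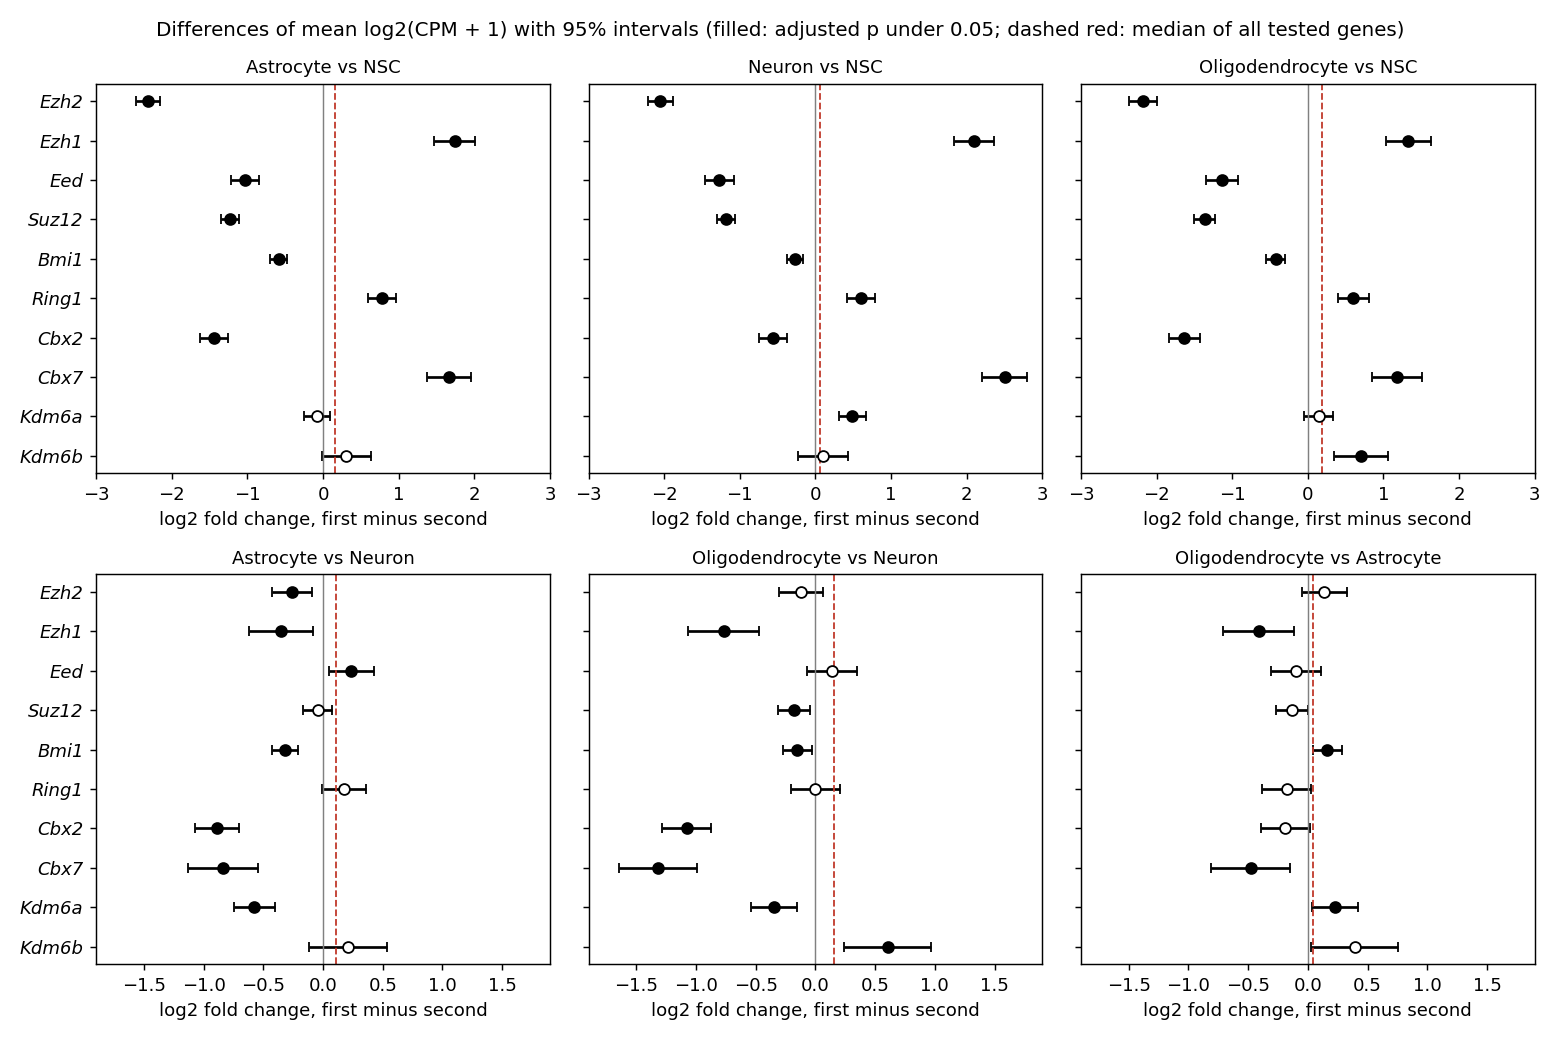
Log2 fold change of each of the 10 genes in 6 comparisons (x axis, first group minus second, on the log2(CPM + 1) scale), with 95% confidence intervals from limma; filled points have an adjusted p under 0.05 and the dashed line is the median of all 13342 tested genes. Ezh2 lies near -2 and Ezh1, Cbx7 and Ring1 lie above 0 in each comparison with NSC, while the bottom row, on a narrower axis, shows the smaller differences between the day 4 media.

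Ezh2 (ENSMUSG00000029687; chromosome 6, 47480273 to 47545340, minus strand, mm9), the main methyltransferase of PRC2 in dividing cells, had levels of 147.89, 146.11 and 158.94 CPM in NSC. It was at 31.34, 26.47 and 31.03 CPM in Astrocyte, 37.01, 32.56 and 37.42 in Neuron, and 32.87 and 32.39 in Oligodendrocyte. Every day 4 library lay far under every NSC library. The fall was the largest of the 10 members in each comparison with NSC. It was -2.31 in Astrocyte (SE 0.0765, adjusted p = 3.71e-12, a 4.97-fold lower level on this scale), -2.18 in Oligodendrocyte (SE 0.0855, adjusted p = 3.11e-11) and -2.05 in Neuron (adjusted p = 1.41e-11). Of all tested genes, 2.91%, 3.94% and 2.92% had a lower value in the Astrocyte, Neuron and Oligodendrocyte comparisons. Among the day 4 groups the order was Neuron, Oligodendrocyte, Astrocyte. Neuron was above Astrocyte (Astrocyte vs Neuron -0.26, adjusted p = 0.00915, limma), with no overlap of libraries. That call was lost without Astrocyte replicate 2 (-0.19, adjusted p = 0.0538). Neither neighbouring pair was called: Oligodendrocyte vs Neuron differed by -0.12 (95% interval -0.31 to 0.06) and Oligodendrocyte vs Astrocyte by 0.14 (-0.05 to 0.32). With median-of-ratios scaling Oligodendrocyte vs Neuron was called for Ezh2 (-0.26, adjusted p = 0.00692), as it was without Neuron replicate 2 (-0.18, adjusted p = 0.0453).

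Ezh1 (ENSMUSG00000006920; chromosome 11, 101052429 to 101087777, minus strand), the alternative catalytic subunit, known as the form of non-dividing cells, went the other way. Its levels were 4.69, 5.86 and 5.69 CPM in NSC, 23.63, 19.98 and 17.77 in Astrocyte, 27.40, 23.38 and 28.24 in Neuron, and 17.13 and 13.16 in Oligodendrocyte. All 8 day 4 libraries were above all 3 NSC libraries. The rise was 2.09 in Neuron (adjusted p = 1.71e-09), 1.74 in Astrocyte (SE 0.123, adjusted p = 1.17e-08) and 1.33 in Oligodendrocyte (SE 0.137, adjusted p = 8.14e-07). The order at day 4 was Neuron, Astrocyte, Oligodendrocyte. The gap of Oligodendrocyte to Neuron (-0.77, adjusted p = 2.62e-04) was called under every setting, while those of Astrocyte to Neuron (-0.35, adjusted p = 0.0232, libraries overlapping) and Oligodendrocyte to Astrocyte (-0.41, adjusted p = 0.0226) were not. Leaving out Astrocyte replicate 2 or 3, or Neuron replicate 1 or 3, ended the Astrocyte to Neuron call of Ezh1 (adjusted p 0.0627 to 0.104). Leaving out Astrocyte replicate 1 (0.0850) or Oligodendrocyte replicate 2 (0.281) ended that between Oligodendrocyte and Astrocyte. Both calls were also lost with no filter on low values (adjusted p 0.0603 and 0.0587).

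**Figure D2:**
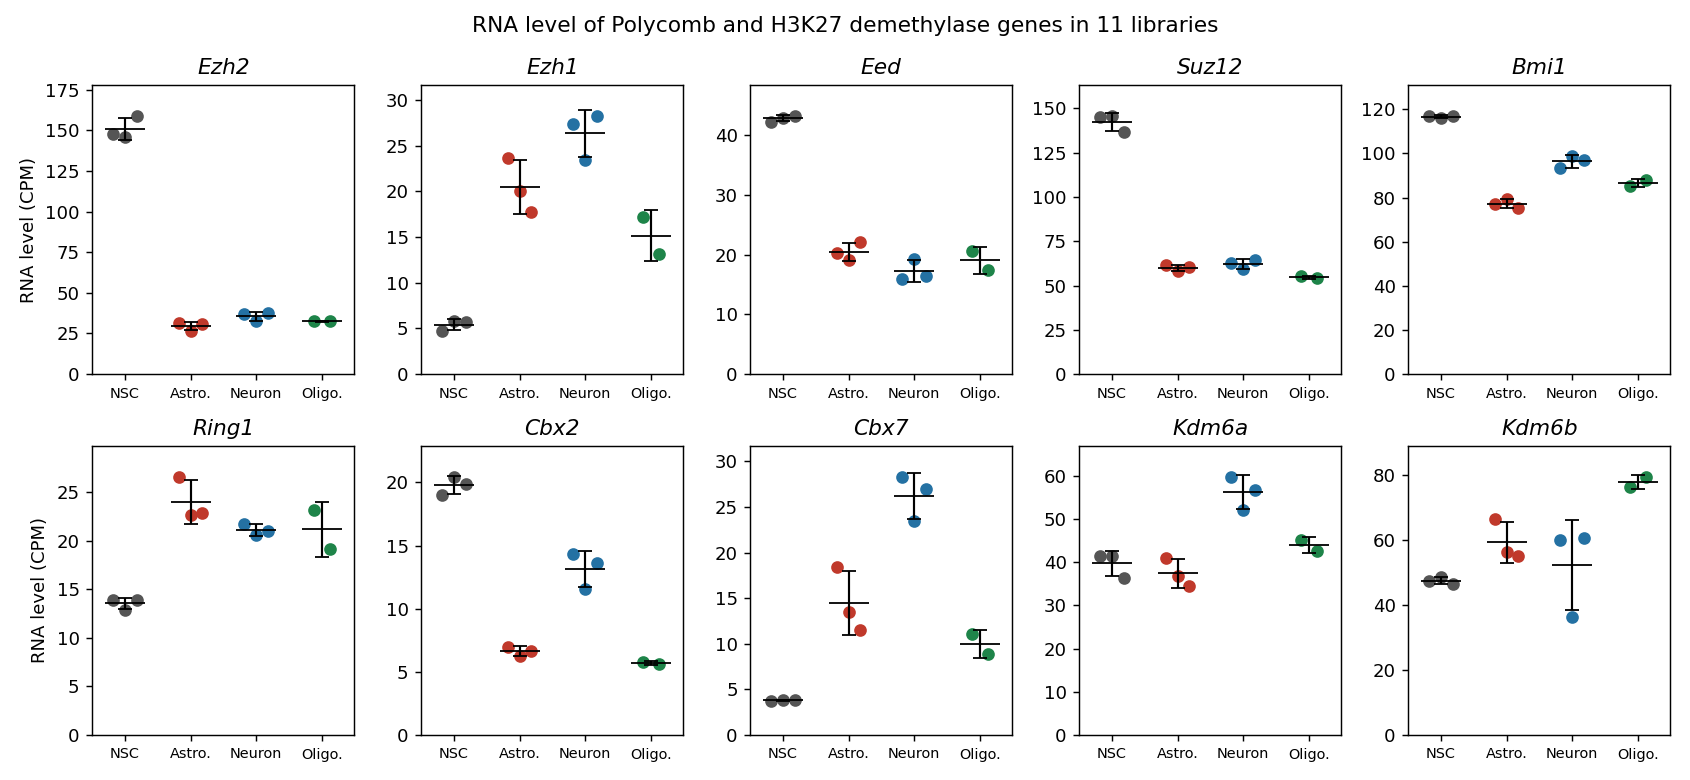
CPM of each gene in the 11 libraries (points), with the group mean (bar) and SD (whiskers; n = 3, and 2 for Oligodendrocyte), on linear axes that start at 0. The NSC libraries sit apart at the top for Ezh2, Eed, Suz12, Bmi1 and Cbx2 and at the bottom for Ezh1, Ring1 and Cbx7; 1 Neuron library is low for Kdm6b.

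The balance of both catalytic genes was read within each library, per kilobase of merged exons (a GRCm38 annotation, not the authors'). The ratio of Ezh1 to Ezh2 averaged 0.0165 over the 3 NSC libraries (SD 0.0019). It averaged 0.320 over the 3 Astrocyte libraries (SD 0.048), 0.340 over the 3 Neuron libraries (SD 0.0085) and 0.214 over the 2 Oligodendrocyte libraries (SD 0.037). The lowest day 4 library, Oligodendrocyte replicate 2, had a ratio of 0.187, and the highest NSC library 0.0185. Ezh2 thus remained the more abundant of the pair per length in each of the 11 libraries. Its mean level was 53.9 CPM per kilobase in NSC and 10.6 to 12.7 in the day 4 groups, against 0.890 and 2.49 to 4.33 for Ezh1.

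**Figure D3:**
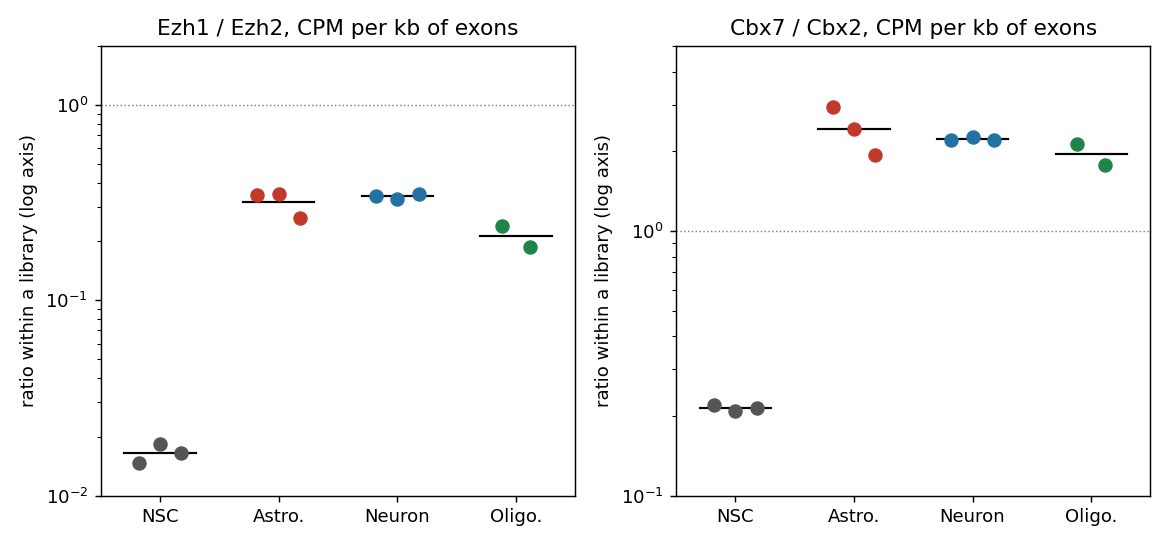
Ratio of Ezh1 to Ezh2 (left) and of Cbx7 to Cbx2 (right), in CPM per kilobase of merged exons, within each of the 11 libraries (points; bars are group means; log axes; dotted line at 1). Ezh1 to Ezh2 rises from 0.0165 in NSC to between 0.214 and 0.340 but stays under 1, while Cbx7 to Cbx2 crosses 1.

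The shared PRC2 core fell with Ezh2, by less. Suz12 (ENSMUSG00000017548; chromosome 11, 79806608 to 79847625, plus strand) was at 145.12, 145.80 and 136.51 CPM in NSC. Its day 4 levels were 61.62, 58.33 and 60.46 in Astrocyte, 62.62, 59.15 and 64.55 in Neuron, and 55.25 and 54.03 in Oligodendrocyte. No day 4 library reached 65 CPM. The differences of Suz12 to NSC were -1.23 (SE 0.0557, adjusted p = 9.81e-11), -1.19 (adjusted p = 1.58e-10) and -1.37 (SE 0.0623, adjusted p = 1.44e-10).

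Eed (ENSMUSG00000030619; chromosome 7, 97103166 to 97129493, minus strand) was at 42.28, 43.00 and 43.27 CPM in NSC, 20.25, 19.04 and 22.13 in Astrocyte, 15.99, 19.32 and 16.39 in Neuron, and 20.61 and 17.48 in Oligodendrocyte. The groups at day 4 overlapped one another and lay well under NSC. Its differences to NSC were -1.03 (SE 0.0866, adjusted p = 7.25e-08), -1.27 (adjusted p = 8.30e-09) and -1.13 (SE 0.0968, adjusted p = 1.08e-07). The ratio of Eed to Suz12, per kilobase, averaged 0.637 (SD 0.029, n = 3) in NSC and had group means of 0.589 to 0.737 at day 4. That of Ezh2 to Suz12 averaged 1.66 (SD 0.14, n = 3) in NSC, then 0.768 (SD 0.052, n = 3), 0.895 (SD 0.033, n = 3) and 0.932 (SD 0.0050, n = 2) for Astrocyte, Neuron and Oligodendrocyte. No day 4 library reached the ratio of any NSC library. At day 4, Suz12 was not called in Astrocyte vs Neuron (-0.05, 95% interval -0.17 to 0.08) except under median-of-ratios scaling (-0.15, adjusted p = 0.0224) or quantile normalization (-0.13, adjusted p = 0.0318). Neither gene was called in Oligodendrocyte vs Astrocyte, where Suz12 differed by -0.14. That value was called under both scalings (adjusted p = 0.0223 and 0.00476) and without Neuron replicate 2 (0.0459). For Suz12, Oligodendrocyte vs Neuron gave -0.18 (adjusted p = 0.0203), a call lost without Neuron replicate 3 (0.0659) or either Oligodendrocyte library (0.0597 and 0.109). Eed was higher in Astrocyte than in Neuron (0.24, adjusted p = 0.0288). That call was lost with median-of-ratios scaling (0.14, adjusted p = 0.197), and also without Astrocyte replicate 1 or 3 or Neuron replicate 1 or 3 (0.0535 to 0.115). Eed was called in Oligodendrocyte vs Neuron without Neuron replicate 2 (0.22, adjusted p = 0.0353) and not with it (0.14, adjusted p = 0.226).

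Within PRC1, Bmi1 fell and Ring1 rose. Bmi1 (ENSMUSG00000026739; chromosome 2, 18598645 to 18608256, plus strand), the PCGF4 partner of the ligase, was at 116.93, 115.94 and 117.02 CPM in NSC, 77.27, 79.25 and 75.30 in Astrocyte, 93.35, 98.97 and 96.92 in Neuron, and 85.27 and 87.90 in Oligodendrocyte. No 2 groups overlapped. The losses were modest: -0.59 in Astrocyte (SE 0.0506, adjusted p = 9.42e-08), -0.43 in Oligodendrocyte (adjusted p = 9.93e-06) and -0.27 in Neuron (adjusted p = 2.02e-04). For Bmi1, Astrocyte vs Neuron gave -0.32 (adjusted p = 1.13e-04), with Oligodendrocyte between them. The steps from Oligodendrocyte to Neuron (-0.15, adjusted p = 0.0283) and to Astrocyte (0.16, adjusted p = 0.0279) were called here but not without either Oligodendrocyte library (adjusted p 0.0646 to 0.163). The first was also lost without Neuron replicate 3 (0.0579), and the second without Astrocyte replicate 1 (0.0559) or 3 (0.0788) and with median-of-ratios scaling (0.107).

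Ring1 (ENSMUSG00000024325; chromosome 17, 34157737 to 34161625, minus strand), which encodes RING1A, a catalytic ligase of PRC1, was at 13.88, 12.85 and 13.87 CPM in NSC. It was at 26.57, 22.58 and 22.81 in Astrocyte, 21.75, 20.60 and 20.96 in Neuron, and 23.15 and 19.14 in Oligodendrocyte. All day 4 libraries exceeded all NSC libraries. The rises of Ring1 were 0.78 (SE 0.0847, adjusted p = 1.14e-06), 0.61 (adjusted p = 1.49e-05) and 0.60 (SE 0.0947, adjusted p = 4.95e-05). No day 4 comparison was called: Oligodendrocyte vs Neuron differed by -0.0029 (95% interval -0.21 to 0.20), Astrocyte vs Neuron by 0.17 (-0.0096 to 0.36) and Oligodendrocyte vs Astrocyte by -0.18 (-0.38 to 0.03). The last was called without Oligodendrocyte replicate 1 (-0.31, adjusted p = 0.0398) and with quantile normalization (-0.22, adjusted p = 0.0394). The other RING1-type ligase gene, Rnf2 (RING1B), moved against Ring1. It fell from 97.76, 98.32 and 97.49 CPM in NSC to 66.13 to 67.77 in Astrocyte (-0.54, adjusted p = 5.45e-07, limma), 65.51 to 71.38 in Neuron (-0.52, adjusted p = 8.39e-07) and 44.89 to 48.52 in Oligodendrocyte (-1.05, adjusted p = 1.87e-09).

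The CBX readers changed places. Cbx2 (ENSMUSG00000025577; chromosome 11, 118884276 to 118892584, plus strand), a CBX protein known for compacting chromatin, was at 19.03, 20.46 and 19.86 CPM in NSC, 7.00, 6.21 and 6.67 in Astrocyte, 14.31, 11.55 and 13.64 in Neuron, and 5.78 and 5.60 in Oligodendrocyte. The Neuron libraries kept an intermediate level with no overlap to the other groups. The differences of Cbx2 to NSC were -1.45 (SE 0.0850, adjusted p = 1.57e-09) in Astrocyte, -0.56 (adjusted p = 3.40e-05) in Neuron and -1.63 (SE 0.0950, adjusted p = 1.82e-09) in Oligodendrocyte. Between media, the level of Cbx2 in Neuron was, on the log2(CPM + 1) scale, 1.85-fold that in Astrocyte (Astrocyte vs Neuron -0.89, adjusted p = 1.00e-06) and 2.11-fold that in Oligodendrocyte (Oligodendrocyte vs Neuron -1.08, adjusted p = 4.18e-07). Both calls held under all 20 settings. Oligodendrocyte vs Astrocyte was not called (-0.19, 95% interval -0.39 to 0.02), but was with median-of-ratios scaling (-0.22, adjusted p = 0.0452).

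Cbx7 (ENSMUSG00000053411; chromosome 15, 79746237 to 79801549, minus strand), a reader of trimethylated H3K27 known from PRC1 of stem cells and fibroblasts, had 3.75, 3.83 and 3.82 CPM in NSC. Its levels were 18.39, 13.44 and 11.55 in Astrocyte, 28.33, 23.44 and 26.95 in Neuron, and 11.04 and 8.87 in Oligodendrocyte. No groups overlapped. Its rise in Neuron was the largest of the 10 genes (2.50, SE 0.136, adjusted p = 7.66e-10, 5.66-fold on this scale), and 96.7% of all tested genes had a lower value there. The rise was 1.66 in Astrocyte (SE 0.136, adjusted p = 5.57e-08) and 1.18 in Oligodendrocyte (SE 0.152, adjusted p = 7.25e-06). Cbx7 was lower than in Neuron in both other media, by -0.84 in Astrocyte (adjusted p = 1.29e-04) and by -1.32 in Oligodendrocyte (adjusted p = 5.32e-06). The gap between Oligodendrocyte and Astrocyte (-0.48, adjusted p = 0.0177) was lost without Astrocyte replicate 1 (0.0554) or Oligodendrocyte replicate 2 (0.189), and with no filter on low values (0.0521). Cbx7 overlaps Apobec3 on the opposite strand. Apobec3 had means of 10.7, 20.7, 14.2 and 11.1 CPM in NSC, Astrocyte, Neuron and Oligodendrocyte, an order unlike that of Cbx7; whether the counting used strand is not given in the sources used here. Per kilobase, the ratio of Cbx7 to Cbx2 averaged 0.215 (SD 0.0055, n = 3) in NSC, then 2.43 (SD 0.50, n = 3), 2.23 (SD 0.033, n = 3) and 1.95 (SD 0.26, n = 2) for Astrocyte, Neuron and Oligodendrocyte. Both genes were higher in Neuron than in the other media, while the Astrocyte ratios, 1.94 to 2.94, spanned those of Neuron, 2.21 to 2.27.

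Of the demethylases, Kdm6a (ENSMUSG00000037369; chromosome X, 17739701 to 17857062, plus strand) rose in Neuron medium. It was at 41.37, 41.36 and 36.36 CPM in NSC, 41.02, 36.85 and 34.37 in Astrocyte, 59.80, 51.98 and 56.65 in Neuron, and 45.22 and 42.57 in Oligodendrocyte. The 3 Neuron libraries lay above all other libraries. Neuron vs NSC was 0.49 (SE 0.0802, adjusted p = 6.58e-05), Astrocyte vs Neuron -0.57 (adjusted p = 3.34e-05) and Oligodendrocyte vs Neuron -0.35 (adjusted p = 0.00392), each called under all 20 settings. Neither other medium was called against NSC: the difference was -0.08 (95% interval -0.26 to 0.09) in Astrocyte and 0.14 (-0.05 to 0.34) in Oligodendrocyte. With median-of-ratios scaling, Kdm6a was called lower in Astrocyte than in NSC (-0.26, adjusted p = 0.00511), and its sign in Oligodendrocyte turned (-0.07, adjusted p = 0.454). Oligodendrocyte vs Astrocyte was 0.23 with an adjusted p of 0.0474, and 12 of the 20 settings put that p above 0.05. Among them were the omission of either Oligodendrocyte library, of Astrocyte replicate 2 or 3, of NSC replicate 1 or 2 and of Neuron replicate 3 (0.0585 to 0.231).

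Kdm6a is X-linked, and Uty is its Y-linked paralog. Xist (463.56 to 1260.1 CPM) and 4 Y-linked genes were detected in every library, so each library held X-inactivation and Y-linked transcripts together. Uty was named because of its relation to Kdm6a, with its values known. It was at 8.49 to 9.08 CPM in NSC, 12.81 to 14.12 in Astrocyte, 14.97 to 16.92 in Neuron and 10.73 to 11.70 in Oligodendrocyte, and rose by 0.56 (adjusted p = 9.29e-06, limma), 0.77 (adjusted p = 3.54e-07) and 0.31 (adjusted p = 0.00396). Of the 5 sex-linked genes, 2, 4 and 3 were called higher in the Astrocyte, Neuron and Oligodendrocyte comparisons with NSC, and none lower, beside 48%, 43.5% and 48.1% of all genes called higher. All 5 were called lower in Astrocyte vs Neuron, as were 22% of all genes, and their part in the Kdm6a difference was not tested. How reads shared by such paralogs were counted is not given in the sources used here.

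Kdm6b (ENSMUSG00000018476; chromosome 11, 69212010 to 69227177, minus strand), the inducible demethylase, was highest with T3. Its levels were 47.45, 48.70 and 46.42 CPM in NSC, 66.45, 56.42 and 55.11 in Astrocyte, 60.19, 36.21 and 60.63 in Neuron, and 76.39 and 79.59 in Oligodendrocyte. Both Oligodendrocyte libraries exceeded the 9 others, and the lowest library was Neuron replicate 2. Oligodendrocyte vs NSC was 0.70 (SE 0.168, adjusted p = 0.00167) and Oligodendrocyte vs Neuron, which share the base medium, 0.60 (adjusted p = 0.00623). Astrocyte vs NSC (0.31, 95% interval -0.02 to 0.63) and Neuron vs NSC (0.10, -0.23 to 0.42) were not called, although the first was with quantile normalization (0.32, adjusted p = 0.0488) and with only the 2 groups compared (0.31, adjusted p = 0.00135). Also not called were Astrocyte vs Neuron (0.21, adjusted p = 0.240) and Oligodendrocyte vs Astrocyte (0.39, adjusted p = 0.0654), the latter except with only the 2 groups compared (adjusted p = 0.00214) or with some libraries left out.

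Neuron replicate 2 decided several of these Kdm6b values. Without it, Kdm6b was called higher than NSC in all 3 media: 0.31 in Astrocyte (adjusted p = 2.60e-04), 0.34 in Neuron (adjusted p = 3.22e-04) and 0.70 in Oligodendrocyte (adjusted p = 8.90e-08). Oligodendrocyte vs Neuron became 0.36 (adjusted p = 6.20e-04), Oligodendrocyte vs Astrocyte was called (0.39, adjusted p = 1.78e-04; also without Neuron replicate 1, 0.0483, or Astrocyte replicate 1, 0.0481), and Astrocyte vs Neuron turned to -0.03 (adjusted p = 0.720). That library was also low for Jarid2 (36.21 CPM against 49.96 and 49.25), Kmt2c (96.43 against 174.4 and 148.45) and Hcfc1 (80.39 against 123.34 and 125.76), examples chosen after their values were seen. It had the highest mitochondrial share, 8.91%, whose part in this was not tested.

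Between the day 4 media, 7 members were called in Astrocyte vs Neuron (1 higher, 6 lower), where 62.2% of all genes were called (40.3% higher, 22% lower). In Oligodendrocyte vs Neuron 7 were called (1 higher, 6 lower), against 67.5% (43.9% higher, 23.6% lower), and in Oligodendrocyte vs Astrocyte 4 (2 in each direction), against 52.2% (28.7% higher, 23.5% lower). Of the calls, 4 of 7, 5 of 7 and 0 of 4 held under all 20 settings. Those were Bmi1, Cbx2, Cbx7 and Kdm6a for Astrocyte vs Neuron, and Ezh1, Cbx2, Cbx7, Kdm6a and Kdm6b for Oligodendrocyte vs Neuron. Cbx2 and Cbx7 reached 2-fold in Oligodendrocyte vs Neuron, where 12.5% of all genes did. No member did in Astrocyte vs Neuron (9.34% of all genes) or Oligodendrocyte vs Astrocyte (7.94%). The libraries did not overlap for 6, 7 and 8 members, against 63%, 75.7% and 71.7% of all genes. With median-of-ratios scaling the split of member calls was 0 higher and 7 lower, 1 and 7, and 0 and 4, and the share of higher genes among all called moved for Astrocyte vs Neuron (64.7% to 52.8%) and for Oligodendrocyte vs Neuron (65.1% to 52.5%). The medium was shared within a group and only 2 Oligodendrocyte libraries were measured, which limits the precision of its values.

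The other genes of the pathway were taken from 5 lists with 44 genes, all of which were tested. Most of those called were lower at day 4: 5 higher and 27 lower in Astrocyte, 10 and 27 in Neuron, and 7 and 24 in Oligodendrocyte, against NSC. The shares called lower over all genes were 35.6%, 39.6% and 32.2%, of 83.6%, 83.1% and 80.2% called in all. The share of pathway genes called was thus close to the background in Neuron and lower than it in Astrocyte and Oligodendrocyte. With median-of-ratios scaling the split was 5 and 31, 10 and 27, and 7 and 34. The medians of the 44 genes were -0.45, -0.33 and -0.47, beside 0.15, 0.06 and 0.19 for all tested genes.

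Among 8 PRC2 accessory genes, 6 were called lower in each comparison with NSC, and 0, 1 and 1 higher. Rbbp7, a histone-binding PRC2 subunit, fell by 1.29 in Astrocyte (adjusted p = 3.97e-10), 1.66 in Neuron (adjusted p = 3.18e-11) and 1.19 in Oligodendrocyte (adjusted p = 4.21e-09). Phf19, a Polycomb-like protein that helps recruit PRC2, was at 16.38, 18.81 and 19.75 CPM in NSC, 12.42, 10.61 and 10.96 in Astrocyte, 2.50, 4.21 and 3.32 in Neuron, and 11.36 and 11.33 in Oligodendrocyte. Its level in Neuron was the lowest, with -2.17 to NSC (adjusted p = 1.43e-09) and a gap of 1.52 to Astrocyte (adjusted p = 2.43e-07, limma). Its relative Mtf2 had its highest day 4 mean in Neuron (33.1 CPM, against 24.8 in Astrocyte and 18.4 in Oligodendrocyte), falling most in Oligodendrocyte (-1.46, adjusted p = 2.60e-09, against NSC) and standing lower there than in Neuron (-0.82, adjusted p = 2.60e-06).

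Of 9 other canonical PRC1 genes, 4, 5 and 4 were called higher and 3, 3 and 3 lower. Pcgf2 (MEL18), the closest relative of Bmi1, was at 3.44, 3.89 and 4.09 CPM in NSC and rose to 18.92, 17.37 and 17.29 in Astrocyte (1.97, adjusted p = 3.38e-11), 17.15, 16.06 and 17.82 in Neuron (1.91, adjusted p = 5.46e-11), and 12.10 and 10.92 in Oligodendrocyte (1.38, adjusted p = 6.42e-09). Pcgf2 thus rose where Bmi1 fell. Phc2, a polyhomeotic subunit, fell by 0.81 in Astrocyte (adjusted p = 7.67e-09) and its relative Phc3 rose by 0.70 (adjusted p = 2.86e-04). Of the 10 variant PRC1 genes, which act without a CBX protein, 8, 6 and 6 were called lower and 0, 2 and 0 higher. L3mbtl2 fell by 1.65 in Neuron (adjusted p = 8.34e-11), and Kdm2b, which brings variant PRC1 to CpG islands, fell by 1.10 in Astrocyte (adjusted p = 8.79e-08).

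The 8 genes of the PR-DUB group, built around the deubiquitinase BAP1 that removes the PRC1 mark, had 4, 5 and 4 lower and 1, 2 and 2 higher calls. Foxk2 fell by 1.48 in Neuron (adjusted p = 1.14e-10), and Ogt, an O-GlcNAc transferase, rose by 0.90 there (adjusted p = 4.23e-05). The KMT2C/D group, the complex in which KDM6A works, had 9 genes, of which 6, 7 and 5 were called lower and none higher. Wdr5, a core subunit shared by KMT2 complexes, had differences of -1.15, -1.23 and -1.12 in Astrocyte, Neuron and Oligodendrocyte (adjusted p = 1.38e-09, 7.44e-10 and 7.62e-09, limma). None of these genes shared the rise of Kdm6a in Neuron by a call.

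**Figure D4:**
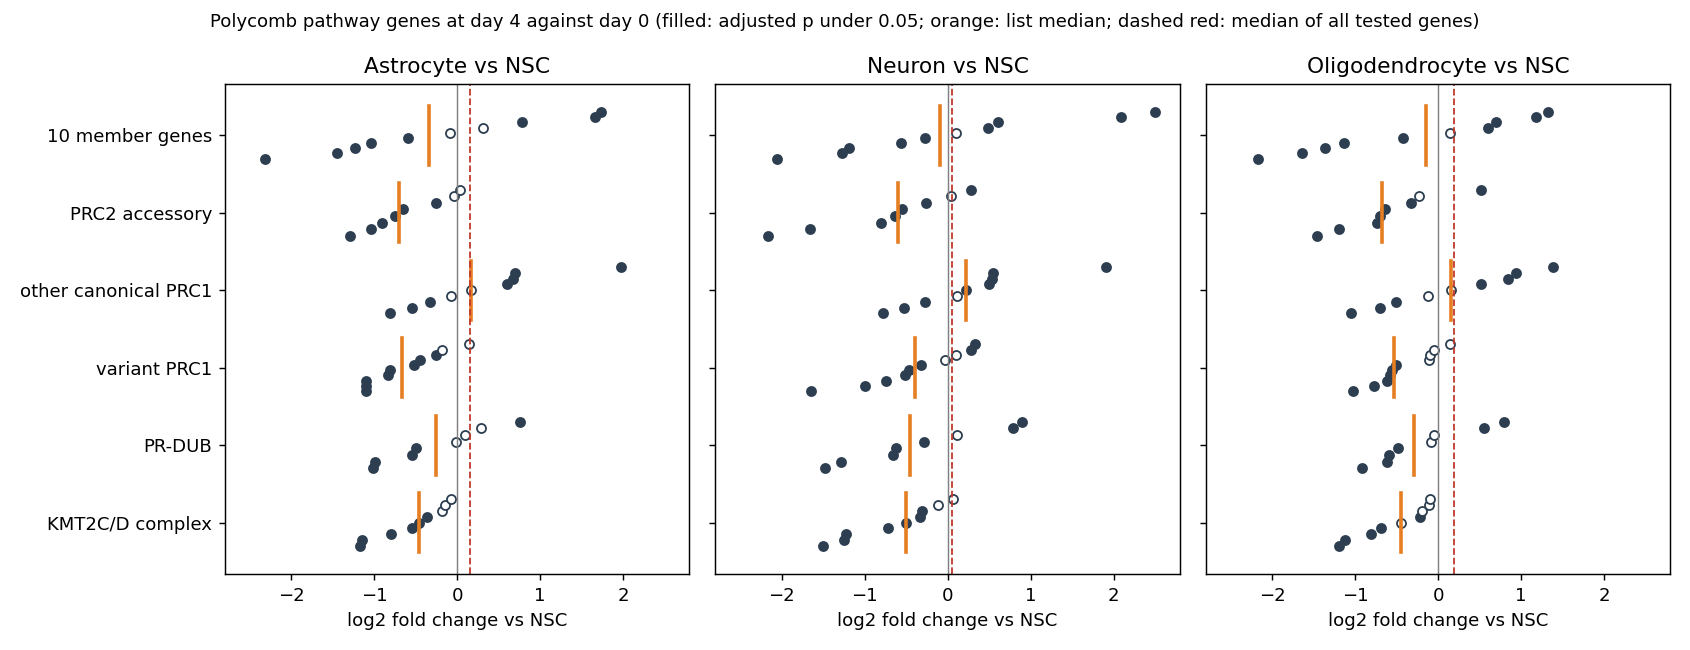
Log2 fold changes to NSC (x axis) of the 10 member genes and of 5 lists of other Polycomb pathway genes, 1 point per gene (filled: adjusted p under 0.05), for the 3 day 4 media. The list medians (orange) lie under the median of all tested genes (dashed), except for other canonical PRC1 in Astrocyte and Neuron. Pcgf2 is the point at the far right of that list.

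Genes that Polycomb is known to repress were read as well. None of the 39 Hox genes matched reached 1 CPM in any library, 20 of them were listed at 0 in all 11, and their summed level was 0.16 to 0.65 CPM per library. The genes of the Ink4 locus, which encode inhibitors of cyclin-dependent kinases, parted. Cdkn2a was at 8.34, 8.56 and 9.67 CPM in NSC, 4.11, 4.69 and 5.50 in Astrocyte, 3.45, 4.75 and 3.66 in Neuron, and 3.89 and 4.23 in Oligodendrocyte. It was lower than NSC by 0.78 (adjusted p = 2.40e-05), 1.00 (adjusted p = 2.02e-06) and 0.96 (adjusted p = 1.03e-05) on the log2 scale. Cdkn2b was at 6.20, 6.47 and 6.92 CPM in NSC, 27.20, 24.95 and 28.22 in Astrocyte, 18.81, 25.22 and 19.94 in Neuron, and 14.67 and 13.92 in Oligodendrocyte. It rose by 1.88, 1.56 and 1.02 (adjusted p = 4.42e-10, 3.67e-09 and 1.18e-06).

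Cell cycle genes were read beside the members, of which 5 were called lower in each comparison with NSC. All 10 cell cycle genes were called lower in each comparison with NSC, with medians of -4.37, -5.16 and -4.33. Their summed level was 3058 to 3104 CPM in NSC, 164 to 194 in Astrocyte, 125 to 141 in Neuron and 202 to 204 in Oligodendrocyte. Mki67, a marker of cycling cells, had differences of -5.26, -5.77 and -4.88 (adjusted p = 2.58e-12, 1.21e-12 and 2.49e-11). The order at day 4 was not that of Ezh2: the Neuron libraries had the lowest cell cycle sum and the highest Ezh2 mean, 35.7 CPM against 29.6 in Astrocyte and 32.6 in Oligodendrocyte. Of the Ezh2 differences at day 4, only Astrocyte vs Neuron was called, and not without Astrocyte replicate 2. For Ezh1, the 3 groups ran in the reverse order of the sum. The order of the sum was not that of every gene in it. In Oligodendrocyte vs Astrocyte, 3 of the 10 cell cycle genes were called higher and 2 lower. The part of cell cycle state in these differences was not tested.

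**Figure D5:**
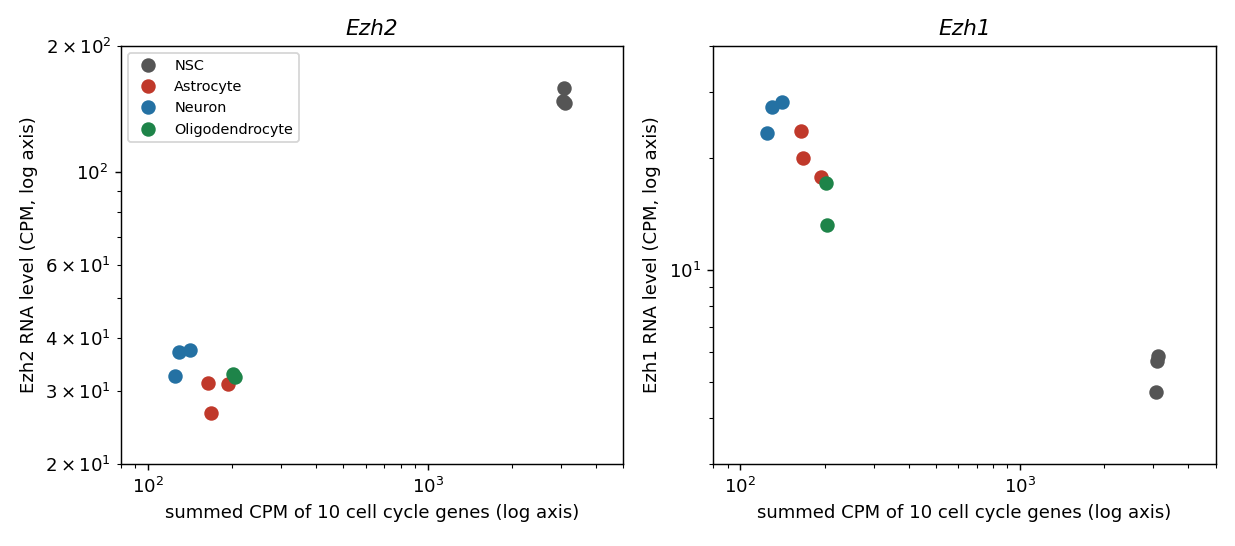
CPM of Ezh2 (left) and Ezh1 (right) against the summed CPM of 10 cell cycle genes in each of the 11 libraries, on log axes. NSC libraries lie apart at 3058 to 3104 CPM on the x axis, and among the day 4 libraries those of Neuron have the lowest sums, while their Ezh1 values overlap those of Astrocyte.

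Across the 11 libraries, log2 levels of Ezh2 and Suz12 had a Pearson r of 0.989 and those of Ezh1 and Cbx7 one of 0.975, while Ezh1 and Ezh2 had -0.911. Kdm6a and Kdm6b had 0.029. These values largely restate the step from NSC to day 4, since the libraries form 4 groups, and they carry no test. Among 9363 genes that averaged 10 CPM or more, the patterns most like that of Ezh2 were those of Lbr, which encodes the lamin B receptor, Rbmxl1 and Nup107, a nuclear pore gene (r 0.997 each). Lbr had means of 84.2 CPM in NSC and 10.3, 12.8 and 11.6 in Astrocyte, Neuron and Oligodendrocyte. Closest to Ezh1 were 4933439F18Rik (r 0.995), Ctdsp2 (0.993) and Usp54 (0.992), and closest to Cbx7 were Kif3a, Lrig3 (0.993 each) and Zfp949 (0.992). Closest to Kdm6b were Nisch (0.991), 2310021P13Rik (0.974) and Cog5 (0.958). Nisch had means of 326, 366, 348 and 428 CPM in NSC, Astrocyte, Neuron and Oligodendrocyte.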

How the data were processed

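RNA of 11 cultures was sequenced (TruSeq Stranded mRNA libraries, per the labels' protocols). The authors deposited CPM values rounded to 2 decimals, with mm9 coordinates per the file headers; listed genes hold 74.95 to 80.25% of the scaled total. The submitters' processing notes list bcl2fastq 1.8.4, TopHat2 2.0.8, HTSeq 0.6.1, edgeR 3.2.4, R 3.0.0 and HOMER, and build NCBIM37; the strand setting of the counting is not given in the sources used here. Whole reads could not be recovered from the values, so no test on counts was made.

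The test covered genes reaching 1 CPM in 2 or more libraries, on log2(CPM + 1) with limma 3.58.1 (R 4.3.3; 1 mean per group over 11 libraries, two-sided, eBayes with trend; 7 residual degrees of freedom plus a prior of 5.96; BH adjustment within each of 6 comparisons), which was tested on simulated data. Folds on this scale understate the changes of low genes. The design text calls the libraries biological replicates; separate animals are not stated, so p-values measure the spread between these libraries. Promoters are RefSeq's (GRCm38.p6). Pathway genes named in the text are at most the 3 tested genes with the largest change per list and comparison, with their values in the other groups; Rnf2, Uty, Jarid2, Kmt2c and Hcfc1 were named with their values known. The neighbours are the 3 genes with the highest correlation. Results were recomputed under 20 alternatives. Members and lists were chosen with earlier results of these data known.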

Additional observations from a re-analysis of the deposited data

How the results depend on the processing

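Each member difference was recomputed under 20 alternatives: pseudocounts of 0.1 and 5, no filter or a stricter one, 2 other scalings, no variance trend, only the 2 groups compared, a replicate block, and each library left out (a lone Oligodendrocyte library was then assumed to vary like the other groups). Of the recomputed values, 1123 kept direction and side of the threshold, 46 lost a call, 23 gained 1 and 8 changed sign. The sign changes concerned differences that were not called: Eed in Oligodendrocyte vs Neuron (-0.057 with quantile normalization) and vs Astrocyte (0.012 without Oligodendrocyte replicate 2), Ring1 in Oligodendrocyte vs Neuron (positive without Neuron replicate 1 or Oligodendrocyte replicate 2), Kdm6a in Oligodendrocyte vs NSC (-0.068 with median-of-ratios scaling), and Kdm6b in Neuron vs NSC (negative without Neuron replicate 1 or 3) and Astrocyte vs Neuron (-0.031 without Neuron replicate 2). With a library left out, these differences ranged from -0.21 to 0.012 (Eed, vs Astrocyte), from -0.13 to 0.13 (Ring1), from -0.024 to 0.34 and from -0.031 to 0.33 (Kdm6b). The cause was not tested.

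The count of members called in Oligodendrocyte vs Astrocyte, 4, was 1 with no filter, where more genes were tested, and 0 to 6 with a library left out: 2 without Astrocyte replicate 1 or 3, 0 without Oligodendrocyte replicate 2. The count of other pathway genes there, 19, ranged from 12 (without Oligodendrocyte replicate 1) to 20. None of the 4 calls held under all 20 alternatives.

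The replicate numbers were not taken to pair the libraries, under a rule that every same-number correlation of deviations exceed 0.1. The correlations were -0.51 to 0.41 over 15 pairs with the same number and -0.54 to 0.54 over 30 other pairs. Between NSC and Astrocyte, same-number pairs had 0.093, 0.17 and 0.39. This rule cannot exclude pairing, since deviations were taken from each group's mean. The 2 Oligodendrocyte libraries therefore gave mirror values, such as -0.029 and 0.029 with NSC replicate 1. The own number was the best match in 17 of 30 cases. These cases were not independent, as each pair was counted from both sides, and no rate for unpaired libraries was computed. The count therefore cannot decide whether some numbers are shared. With the replicate block, 8, 9 and 9 members were called in Astrocyte, Neuron and Oligodendrocyte vs NSC, 8 in Astrocyte vs Neuron, where Ring1 was gained (0.17, adjusted p = 0.0475), 3 in Oligodendrocyte vs Astrocyte, where Kdm6a was lost, and 7 in Oligodendrocyte vs Neuron.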
